A study of Mus musculus with 24 samples.

Results

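The genes described here were 10 established targets of the transcription factor ATF4, measured by RNA sequencing in the quadriceps femoris muscle of 24 mice. They were Ddit3, Trib3, Sesn2 and Chac1, which act in stress signalling, Slc7a5 and Slc1a4, which encode amino acid transporters, and Asns, Psat1, Phgdh and Mthfd2, which encode enzymes of asparagine, serine and one-carbon metabolism. They made up 10 of the 18669 genes in the count table and were taken by their mouse symbols. They were picked because several had been seen to be higher after the HSP90 inhibitor HSP990 in mice without a working Hsf1 gene, so their values after HSP990 are given as a description and without a test. The reason for picking them did not name heat shock or the comparison of genotypes in control mice, and these are tested. Earlier results of these data were known when they were picked. Of the 10 genes, 9 passed the filter on low counts (at least 2 counts in at least 10 libraries), and Chac1, which encodes a glutathione-degrading enzyme, was at 0 counts in all 24 libraries. Whether the annotation used for counting could assign reads to Chac1 is not given in the sources used here, so its 0 is not read as absence of expression.

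ATF4 is the main effector of the integrated stress response. In that pathway, kinases that sense amino acid shortage, unfolded protein in the endoplasmic reticulum, double-stranded RNA or lack of haem phosphorylate the translation factor eIF2alpha, general protein synthesis slows, and the Atf4 mRNA is translated more efficiently because of upstream open reading frames. ATF4 then pairs with C/EBP family proteins on composite DNA elements and raises genes for amino acid uptake, amino acid synthesis and tRNA charging, together with regulators such as CHOP that shape the outcome of lasting stress. HSF1, by contrast, is the transcription factor that raises cytosolic chaperones after heat or HSP90 inhibition.

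The mice were wild type, R6/2 or Hsf1-/-, all labelled with a CBA x C57BL/6 F1 background, and muscle was taken 4 h after treatment with 2 mice in each of 12 groups. R6/2 mice carry a transgene with exon 1 of mutant human huntingtin and are a model of Huntington's disease, and Hsf1-/- mice are homozygous for a knockout of Hsf1. For heat shock (HS), anaesthetised mice were held at 41.5 °C for 15 min, and control mice went through a mock procedure at 36.9 °C for 21 min. For HSP90 inhibition, mice were given HSP990 at 12 mg/kg by mouth, and their controls received vehicle, which the labels describe as saline while HSP990 was formulated with methyl cellulose. Wild type and R6/2 mice were 12 weeks old, Hsf1-/- mice were 10 weeks old in the HS experiment and 8 weeks old in the HSP990 experiment, so genotype and age could not be told apart in any comparison of Hsf1-/- with wild type.

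Libraries held 22450177 to 46599238 counts. Values are given as CPM, which is the count of a gene relative to the total of its library after scaling by the trimmed mean of M-values, and differences as log2 fold changes with their standard error (SE) from an edgeR quasi-likelihood fit to all 24 libraries. A gene was called when its Benjamini-Hochberg adjusted p over 13754 genes was below 0.05. Hsf1 itself lay at 21.08 to 28.96 CPM in the 8 Hsf1-/- mice and at 45.3 to 68.6 CPM in the other 16, a reduction without overlap, and its level in control mice differed by a log2 fold change of -1.31 (SE 0.13, adjusted p = 4.2e-05). Transcript of the targeted gene was therefore lower but still counted in Hsf1-/- muscle, and whether those counts come from outside the deleted part was not tested. Summed markers of skeletal muscle were at 167000 to 226300 CPM in wild type and Hsf1-/- mice and at 33480 to 76000 CPM in R6/2 mice. The other marker sums ranged over all libraries from 217.1 to 2212 CPM for adipocytes, 33.9 to 84.2 for macrophages, 617.6 to 1236 for fibroblasts, 310 to 536.4 for endothelium, 2.30 to 26.7 for erythroid cells and 51.7 to 138.2 for Schwann cells. Y-linked genes summed to at most 0.0881 CPM in all wild type and R6/2 mice of the HS experiment and to 162.6 CPM or more in every other mouse.

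The element through which ATF4 and C/EBP proteins act has the core letters TGATGNAA, and the sequences below are those members with a match near the start site, with the match in capitals. The windows ran from 250 bases before to 50 after the start in RefSeq (GRCm38.p6), 9 of the 10 members had an entry (Slc7a5 had none), and both strands were searched. The matches in Trib3, Chac1 and Slc1a4 lie on the strand opposite to the gene and so read as its reverse complement in these lines.
Chac1 (chr2:119351038-119351067, plus strand): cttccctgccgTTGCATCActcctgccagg
Slc1a4 (chr11:20332699-20332728, minus strand): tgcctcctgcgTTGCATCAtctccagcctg
Trib3 (chr2:152344028-152344057, minus strand): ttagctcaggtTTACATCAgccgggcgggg
Asns (chr6:7693214-7693243, minus strand): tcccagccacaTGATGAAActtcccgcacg
These 4 of 9 members held the core letters, at -193 to -186 in Chac1, -4 to 4 in Slc1a4, 15 to 22 in Trib3 and -23 to -16 in Asns, counted from 1 at the start site with no 0. The same letters occurred in 3.97% of all 32851 windows. No match was found in the windows of Ddit3, Sesn2, Psat1, Phgdh and Mthfd2. The longer stretch before the Asns start is shown because asparagine synthetase is the classic gene in which an amino acid response element was described.
Asns (chr6:7693210-7693459, minus strand): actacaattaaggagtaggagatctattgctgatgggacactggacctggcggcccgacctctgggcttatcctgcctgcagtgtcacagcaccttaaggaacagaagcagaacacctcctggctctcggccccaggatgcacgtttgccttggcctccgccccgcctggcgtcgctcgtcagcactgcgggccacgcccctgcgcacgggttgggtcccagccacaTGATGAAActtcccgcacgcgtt
Among other motifs searched in the same windows, the heat shock element (0.603% of all windows), the endoplasmic reticulum stress element (0.119%) and the cyclic AMP response element (TGACGTCA, 1.79%) had a match in none of the 9 members with an entry. A match is a run of letters and not a measured binding site.

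After HSP990, 7 of the 9 measured members were higher in both treated Hsf1-/- mice than in all other 22 libraries. These were Ddit3, Trib3, Sesn2, Slc7a5, Slc1a4, Psat1 and Mthfd2, and 1.01% of all tested genes had that pattern. The median log2 fold change of the 9 members against vehicle was 3.27 in Hsf1-/- mice, 0.61 in wild type and 0.18 in R6/2 mice, beside medians of 0.01, -0.0011 and 0.01 over all tested genes. With any 1 mouse of the comparison left out, the R6/2 median was higher, at 0.323 to 0.506, and the wild type median reached 1.02 without wild type HSP990 replicate 1. Since these comparisons were used to pick the members, no test is attached to the values that follow.

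**Figure D1:**
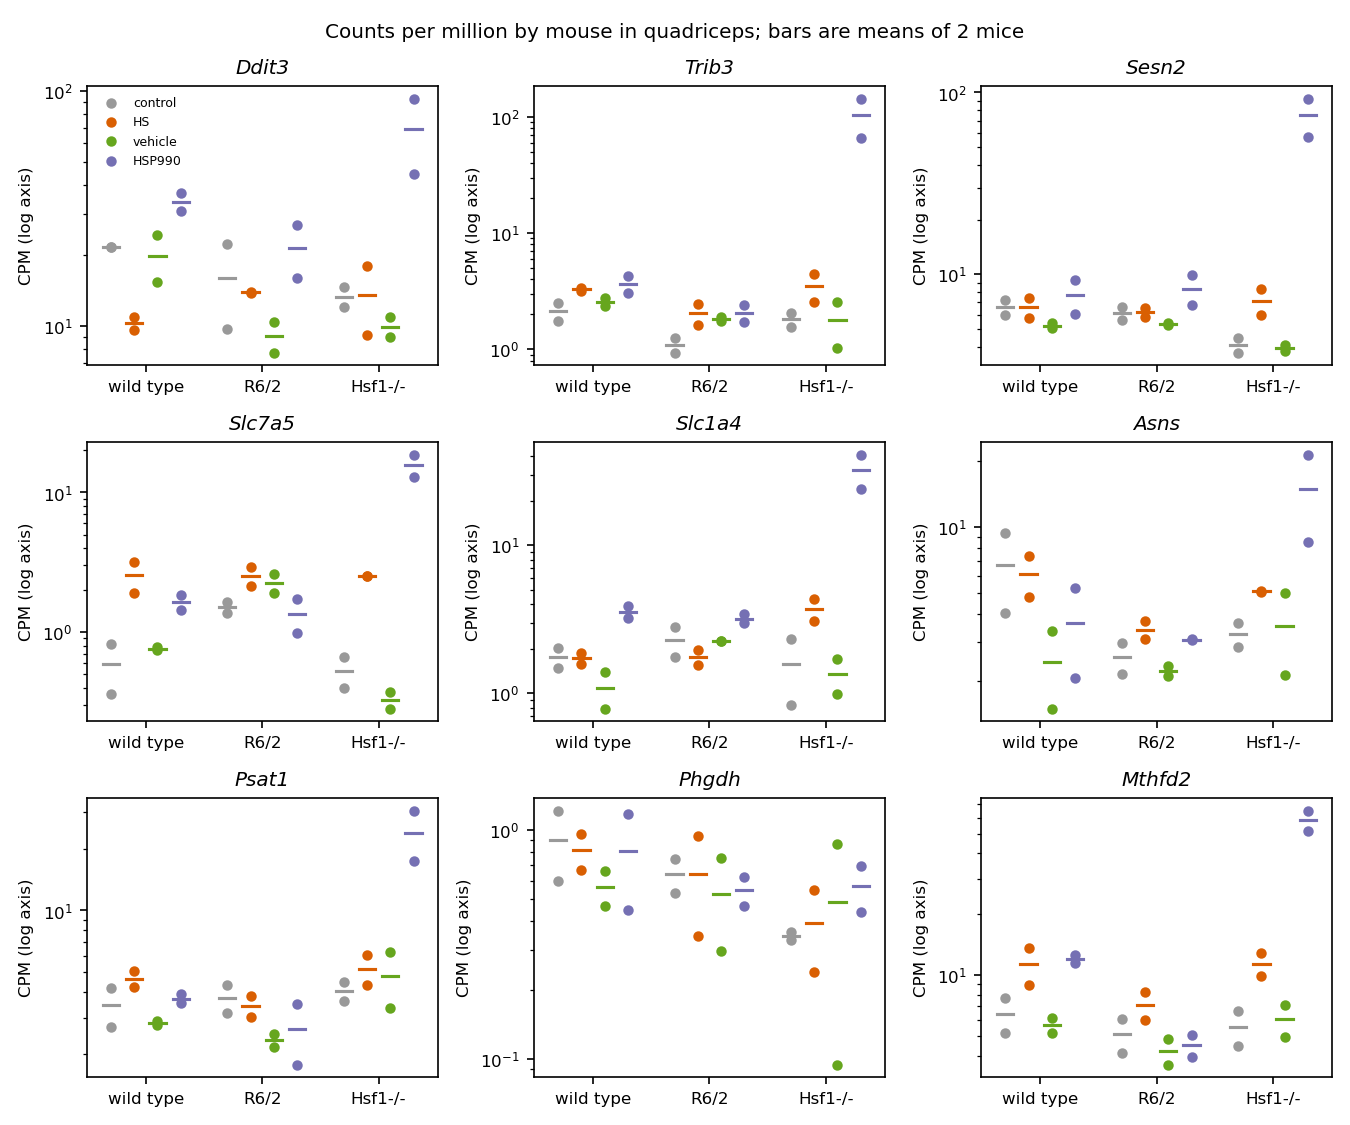
CPM (log axis) of the 9 measured members in every mouse, by genotype and treatment, with a bar at the mean of the 2 mice. In Hsf1-/- mice the 2 points for HSP990 lie above every other point for 7 members, for example at 65.6 and 143 CPM for Trib3 against a highest value of 4.47 elsewhere, while Asns and Phgdh overlap with other groups.

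Trib3 encodes a pseudokinase that is induced late in the stress response and restrains ATF4 and CHOP (chr2:152163158-152169768, minus strand, NCBIM37). In Hsf1-/- mice it was at 1.04 and 2.57 CPM after vehicle and at 65.6 and 143 CPM after HSP990, a log2 fold change of 5.84 (SE 0.46). In wild type it went from 2.77 and 2.37 CPM to 4.29 and 3.08 CPM (log2 fold change 0.51, SE 0.41), and in R6/2 from 1.90 and 1.77 to 2.43 and 1.71 CPM (0.17, SE 0.41). The 2 treated Hsf1-/- mice were thus far above the other 22, whose highest value was 4.47 CPM, and the wild type treated mice lay only just above their vehicle mice.

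Sesn2, which encodes sestrin 2, a leucine sensor that restrains the growth kinase complex mTORC1 (chr4:132047947-132066416, minus strand), also changed most in Hsf1-/- mice. It went from 4.10 and 3.78 CPM to 57.2 and 92.4 CPM in Hsf1-/- mice (log2 fold change 4.25, SE 0.29). The corresponding values were 5.05 and 5.39 against 9.33 and 6.06 CPM in wild type (0.55, SE 0.26) and 5.28 and 5.39 against 6.77 and 9.91 CPM in R6/2 (0.65, SE 0.25). Treated and vehicle mice did not overlap in any of the 3 genotypes, but the size of the step differed, with a difference between Hsf1-/- and wild type of 3.69 (SE 0.38) on the log2 scale.

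Ddit3 encodes the transcription factor CHOP (chr10:126727830-126733344, plus strand), whose lasting production favours cell death. It was at 8.95 and 10.96 CPM after vehicle and at 44.6 and 92.8 CPM after HSP990 in Hsf1-/- mice (log2 fold change 2.78, SE 0.42), at 24.5 and 15.4 against 36.7 and 31.04 CPM in wild type (0.76, SE 0.40), and at 10.4 and 7.71 against 16.0 and 26.9 CPM in R6/2 (1.24, SE 0.40). Treated and vehicle mice did not overlap in any genotype, and the lower treated Hsf1-/- mouse stood above the higher treated wild type mouse by a smaller margin than in Trib3 or Sesn2. Up to 68 exonic bases of Ddit3 overlap a gene on the other strand, and the strand setting used for counting is not given in the sources used here.

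Of the transporters, Slc7a5, the transporting light chain (LAT1) of an exchanger for leucine and other large neutral amino acids (chr8:124405052-124431594, minus strand), was counted rarely outside the treated Hsf1-/- mice. The vehicle mice of that genotype held 6 and 9 counts (0.28 and 0.37 CPM) and the treated mice 571 and 426 counts (12.8 and 18.6 CPM), a log2 fold change of 5.56 (SE 0.46). Wild type mice were at 0.75 and 0.78 CPM after vehicle and at 1.45 and 1.83 CPM after HSP990 (1.11, SE 0.41). R6/2 mice moved the other way, from 1.92 and 2.61 to 0.98 and 1.73 CPM (-0.73, SE 0.37), and Slc7a5 was the only one of the 9 members with both treated R6/2 mice below both vehicle mice.

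Slc1a4, the ASCT1 exchanger for serine, alanine and other small neutral amino acids (chr11:20202183-20232716, minus strand), was the member with the largest fold change in wild type mice. Those mice went from 0.79 and 1.40 CPM to 3.89 and 3.22 CPM (log2 fold change 1.69, SE 0.43), and R6/2 mice from 2.26 and 2.24 to 3.41 and 2.96 CPM (0.50, SE 0.39). In Hsf1-/- mice the values were 0.99 and 1.70 CPM after vehicle and 23.8 and 40.9 CPM after HSP990 (4.57, SE 0.45). None of these 3 pairs of groups overlapped.

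Mthfd2, the mitochondrial folate enzyme of the one-carbon pathway (chr6:83255685-83267600, minus strand), was at 4.94 and 7.14 CPM after vehicle and at 51.6 and 65.1 CPM after HSP990 in Hsf1-/- mice (log2 fold change 3.27, SE 0.31). In wild type mice it was at 6.13 and 5.20 against 12.6 and 11.52 CPM (1.09, SE 0.30), and in R6/2 at 3.61 and 4.85 against 3.95 and 5.07 CPM (0.10, SE 0.29). Wild type treated mice lay clearly above their vehicle mice, whereas the R6/2 groups overlapped.

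The other enzymes were less uniform. Psat1, the aminotransferase of serine synthesis (chr19:15979168-16021827, minus strand), was at 3.34 and 6.27 CPM after vehicle and at 17.3 and 30.5 CPM after HSP990 in Hsf1-/- mice (log2 fold change 2.31, SE 0.37), with changes of 0.39 (SE 0.37) in wild type and 0.18 (SE 0.36) in R6/2. Asns, asparagine synthetase (chr6:7625169-7643254, minus strand), was at 2.12 and 4.98 CPM after vehicle and at 21.3 and 8.54 CPM after HSP990 in Hsf1-/- mice (2.07, SE 0.53). Its lower treated mouse thus lay above all vehicle mice but below a mock-treated wild type control mouse of the HS experiment, at 9.40 CPM. Phgdh, the first enzyme of serine synthesis (chr3:98117093-98143913, minus strand), was rare in this muscle, with 2 to 41 counts per library. It was at 0.09 and 0.87 CPM after vehicle and at 0.70 and 0.44 CPM after HSP990 in Hsf1-/- mice (0.23, SE 0.78), and the CPM of the 2 vehicle mice spanned those of both treated mice. Its transcript also aligned to 1 other place in the genome with at most 0.02 divergence, so its counts are uncertain.

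**Figure D2:**
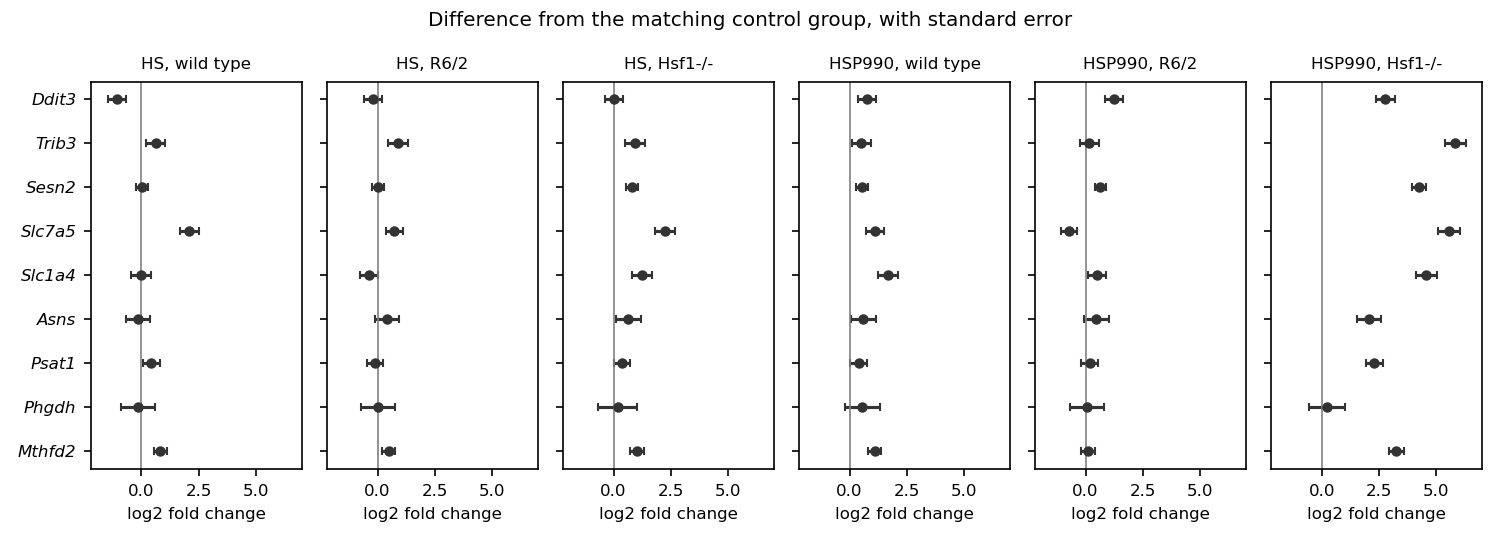
Fitted log2 fold change of each measured member against the matching control group, with bars of 1 standard error, in the 6 treatment comparisons. Changes after HSP990 in Hsf1-/- mice run from 0.23 for Phgdh to 5.84 for Trib3, while after HS none of the 3 genotypes has a member above 2.25.

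Both treated Hsf1-/- mice contributed, but not equally. The second mouse was higher than the first in 7 of the 9 members, by 1.26 times for Mthfd2 to 2.18 times for Trib3, and lower for Asns (0.40 times) and Phgdh (0.63 times). The first mouse had the deepest library, with 46599238 counts, and its summed adipocyte markers were at 2212 CPM against 529 CPM in the second and 541 and 1119 CPM in the vehicle mice, a difference whose part in these values was not tested. When each of the 4 Hsf1-/- mice of this experiment was left out in turn, the median of the members stayed between 3.03 and 3.56.

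Wild type mice also had higher values after HSP990 than after vehicle. All 9 measured members had a positive log2 fold change in wild type, from 0.39 for Psat1 to 1.69 for Slc1a4, and in 7 of them both treated mice lay above both vehicle mice, a pattern found in 24.3% of all tested genes. In R6/2 mice this held for 4 members (Ddit3, Sesn2, Slc1a4 and Asns) beside 21.2% of all genes, and in Hsf1-/- mice for 8, all but Phgdh, beside 18.7%. Markers of some other cell types were also higher in wild type mice after HSP990. All 7 macrophage markers were higher (median log2 fold change 0.77, 1 called), with summed levels of 36.9 and 36.95 CPM after vehicle and 51.04 and 84.2 CPM after HSP990, and all 5 fibroblast markers were higher (median 0.78, 0 called by edgeR, 3 at an unadjusted p below 0.05). Of the 5 endothelial markers 4 were higher (median 0.60, 0 called by edgeR, 3 at an unadjusted p below 0.05). All 7 skeletal muscle markers were lower (median -0.13, 0 called). The part of these markers in the members' values was not tested. The difference in log2 fold change between Hsf1-/- and wild type was positive for 8 of 9 members, from 1.46 (SE 0.75) for Asns to 5.32 (SE 0.60) for Trib3, and was -0.32 (SE 1.10) for Phgdh.

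Heat shock was not named in the reason for picking the members, and Slc7a5 was the member called after it in wild type mice. In wild type mice Slc7a5 was at 0.36 and 0.82 CPM in control mice and at 1.90 and 3.20 CPM after HS, a log2 fold change of 2.08 (SE 0.42, Benjamini-Hochberg adjusted p = 0.013 by the edgeR test). It was the 1 of 9 measured members called in that comparison, in which 2.06% of all genes were called. The call was lost without wild type control replicate 1 (log2 fold change 1.63) and without wild type HS replicate 2 (1.66). With only the 4 libraries compared it was also lost, at an adjusted p of 0.064 by edgeR.

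The remaining members did not pass the threshold in wild type mice, and DESeq2 also called 1 of the 9. Mthfd2 was at 7.69 and 5.19 CPM in control mice and at 13.7 and 8.99 CPM after HS (log2 fold change 0.82, SE 0.29, adjusted p = 0.21 by edgeR). Ddit3 stood on the other side, at 21.7 CPM in both control mice and at 10.9 and 9.65 CPM after HS (-1.08, SE 0.41, adjusted p = 0.24 by edgeR). With only the 4 libraries compared, Ddit3 had an adjusted p of 0.0045 by edgeR, and over 13 alternatives its log2 fold change stayed between -1.22 and -0.99 and was called in 3. The median over the 9 members was 0.0069, and both HS mice were above both control mice for 4 of them, beside 23.1% of all genes.

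In R6/2 mice 0 of the 9 members were called after HS by edgeR's quasi-likelihood test, beside 0.0436% of all genes, with 0 at an unadjusted p below 0.05 and 0 called by DESeq2. The values nearest the threshold were those of Trib3, at 1.26 and 0.94 CPM in control and 2.47 and 1.61 CPM in HS mice (log2 fold change 0.90, SE 0.42, adjusted p = 0.62 by edgeR), and of Slc7a5, at 1.65 and 1.37 CPM against 2.91 and 2.13 CPM (0.74, SE 0.37, adjusted p = 0.63 by edgeR). Both HS mice were above both control mice for 3 members (Trib3, Slc7a5 and Asns), beside 15.1% of all genes.

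In Hsf1-/- mice all 9 measured members had a positive log2 fold change after HS, where 50.4% of all tested genes did, and the median was 0.82 beside 0.0025 over all genes. The sign of 2 of the 9 rested on single settings or mice. Ddit3 was at -0.02 when scaled by library size only, and without Hsf1-/- HS replicate 1 Ddit3 was at -0.55 and Phgdh at -0.53. Of the 7 macrophage markers 5 were higher as well (median 0.54, 4 at an unadjusted p below 0.05, 0 called by edgeR), with summed levels of 47.5 and 51.7 CPM in control and 67.1 and 68.4 CPM in HS mice, and their part in the members' values was not tested. No member was called by edgeR (0.00727% of all genes were), while 5 had an unadjusted p below 0.05 and DESeq2 called 1. Slc7a5 was closest, at 0.40 and 0.66 CPM in control mice and at 2.53 and 2.50 CPM after HS (log2 fold change 2.25, SE 0.43, adjusted p = 0.054 by edgeR). Slc1a4 followed, at 0.84 and 2.32 CPM against 4.32 and 3.06 CPM (1.24, SE 0.42, adjusted p = 0.31 by edgeR). Mthfd2 was at 4.46 and 6.66 against 12.8 and 9.85 CPM (1.03, SE 0.30, adjusted p = 0.2 by edgeR), and Sesn2 at 3.70 and 4.44 against 8.33 and 6.00 CPM (0.82, SE 0.27, adjusted p = 0.29 by edgeR). Both HS mice were above both control mice for 6 members, namely Trib3, Sesn2, Slc7a5, Slc1a4, Asns and Mthfd2, beside 20.8% of all genes.

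The HS response of the members was not shown to differ between genotypes. In the test of the difference between R6/2 and wild type 0 of 9 were called by edgeR and 0 by DESeq2 (0.0727% of all genes were called by edgeR), with 1 at an unadjusted p below 0.05, Slc7a5, whose difference was -1.34 with a 95% interval of -2.51 to -0.18. Between Hsf1-/- and wild type 0 of 9 were called by edgeR and 0 by DESeq2 (0.16% of all genes by edgeR), with 2 at an unadjusted p below 0.05. These were Sesn2 (0.81, 95% interval 0.02 to 1.60) and Slc1a4 (1.27, 95% interval 0.0039 to 2.54). The Slc7a5 difference was 0.18 with an interval of -1.08 to 1.43, so a difference of more than 1 log2 unit in either direction remains within it. Hsf1-/- and wild type mice of the HS experiment also differed in age and in Y-linked expression, which cannot be told apart from genotype.

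In mock-treated control mice 1 member was called between R6/2 and wild type and none between Hsf1-/- and wild type. Slc7a5 was higher in R6/2, at 1.65 and 1.37 CPM against 0.36 and 0.82 CPM in wild type (log2 fold change 1.33, SE 0.41, adjusted p = 0.045 by edgeR). It was the 1 of 9 called, a share near the 12.4% of all genes called in that comparison. That call was lost without either R6/2 control mouse (1.18 and 1.45) and without wild type control replicate 1 (0.88). Asns, at 2.14 and 2.96 CPM in R6/2 and 9.40 and 4.07 CPM in wild type, was not called (-1.40, SE 0.53, adjusted p = 0.095 by edgeR). All 7 skeletal muscle markers were lower in R6/2 control mice, 5 of them called, and the part of that in the Slc7a5 difference was not tested. In bulk muscle, fewer cells of a type and less RNA per cell cannot be told apart.

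Between Hsf1-/- and wild type control mice 0 of 9 members were called by edgeR and 0 by DESeq2, beside 1.93% of all genes by edgeR, with 1 at an unadjusted p below 0.05. That was Sesn2, at 3.70 and 4.44 CPM in Hsf1-/- and 7.20 and 5.97 CPM in wild type (log2 fold change -0.69, SE 0.27, adjusted p = 0.18 by edgeR). The log2 fold change was positive for 1 of 9 members, Psat1, where 47.1% of all tested genes were higher. With 1 control mouse left out, Slc7a5, Slc1a4, Mthfd2 and Trib3 reached positive values (up to 0.538 for Slc7a5) and Psat1 a negative one (-0.062). These mice also differed in age and in Y-linked expression, which cannot be told apart from genotype.

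The mRNA of Atf4 itself had a smaller log2 fold change after HSP990 in Hsf1-/- mice than 8 of the 9 measured members. It was at 275 and 303 CPM after vehicle and at 400 and 451 CPM after HSP990 in Hsf1-/- mice, the highest values of the 24 libraries, and its log2 fold change of 0.56 (SE 0.18) did not pass the threshold (adjusted p = 0.29 by edgeR). In wild type it was at 322 and 304 CPM after vehicle and at 297 and 351 CPM after HSP990 (0.05, SE 0.18, adjusted p = 0.94 by edgeR). Control of ATF4 is largely at the level of translation, which these libraries do not measure.

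Beyond the 10 members, 66 other genes of the pathway were in the table and 64 were tested, comprising kinases and phosphatases of eIF2alpha, transcription factors, further ATF4 targets and aminoacyl-tRNA synthetases. In Hsf1-/- mice 8 of the 64 were called as higher after HSP990 and 0 as lower, beside 0.218% of all genes called. The log2 fold change was positive for 47 of the 64, where 51.6% of all genes were higher, and the median was 0.37 beside 0.01 over all genes. Because this comparison picked the members and the pathway lists were made with earlier results of these data known, these calls are not an independent test of the pathway. Each of the 8 called genes had both treated mice above both vehicle mice. Among the 20 chaperones and other genes of the endoplasmic reticulum stress response 0 were called by edgeR (1 at an unadjusted p below 0.05), with a median of 0.05.

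The 8 genes covered uptake, regulation and tRNA charging. Slc7a1, a transporter of arginine and lysine, rose from 9.23 and 10.5 to 80.5 and 105 CPM (log2 fold change 3.24, SE 0.39, adjusted p = 0.00051 by edgeR), and Slc6a9, a glycine transporter, from 8.57 and 10.7 to 22.4 and 53.0 CPM (1.96, adjusted p = 0.0071 by edgeR). Fgf21, a hormone secreted by stressed muscle and liver, was at 0 and 4 counts after vehicle and at 218 and 166 counts after HSP990 (adjusted p = 0.044 by edgeR), and this call was lost without any 1 of the 4 mice. Jdp2 (1.82) and Cebpg (1.10), both bZIP transcription factors, rose as well, and so did the synthetases Aars (0.86) and Lars (0.70) and the tRNA exporter Xpot (0.89). Exons of Slc6a9 and Aars overlap genes on the other strand. The core letters TGATGNAA were found in 3 of the 7 genes of this group with a RefSeq promoter entry, Aars, Fgf21 and Jdp2. A gene counted if any of its windows matched, and Jdp2, Slc6a9 and Slc7a1 had several, while 3.97% is the share of single windows. The Fgf21 match lies on the strand opposite to the gene and so reads as its reverse complement. The lines below give the matches of Fgf21 and Jdp2.
Fgf21 (chr7:45615611-45615640, minus strand): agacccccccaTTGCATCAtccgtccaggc
Jdp2 (chr12:85599372-85599401, plus strand): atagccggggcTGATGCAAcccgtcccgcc

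The number of these genes called depended on single mice and on the fit, and so did the number called over all genes. It was 2 without Hsf1-/- vehicle replicate 1, 5 without vehicle replicate 2, and 7 and 6 without HSP990 replicates 1 and 2. With only the 4 libraries compared edgeR called 0, beside 0 of all genes. DESeq2 on all 24 libraries called 15, beside 141 of all genes, where edgeR called 30. Xpot was the 1 pathway gene whose response to HSP990 was called as different between Hsf1-/- and wild type (difference 0.75, SE 0.15, adjusted p = 0.033 by edgeR), beside 0.422% of all genes, and the call was lost without any of these 8 mice other than wild type HSP990 replicate 1. It was at 39.0 and 38.9 CPM after vehicle and 71.6 and 73.1 CPM after HSP990 in Hsf1-/- mice, and at 38.7 and 37.7 against 44.8 and 39.8 CPM in wild type.

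**Figure D3:**
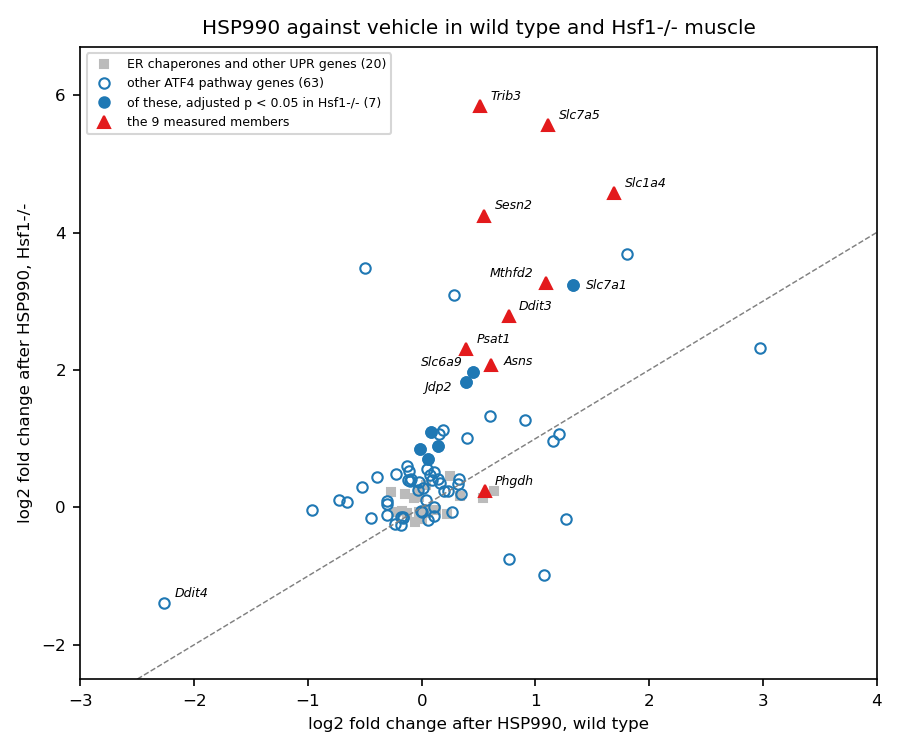
Log2 fold change after HSP990 in wild type (x axis) and in Hsf1-/- muscle (y axis) for the 9 measured members, the other ATF4 pathway genes and the genes of the endoplasmic reticulum stress response, with a dashed line of equal change. Of the members, 8 lie above the line, Phgdh lies below it, and the 20 endoplasmic reticulum genes cluster around 0. Fgf21 is left out because both wild type vehicle mice were at 0 counts.

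In control mice 8 of the 64 pathway genes were called between R6/2 and wild type, in the comparison where 12.4% of all genes were called. Cebpb (0.63), Eif4ebp1 (0.84), Lars (0.53) and Map1lc3b (0.35) were higher in R6/2, and Vldlr (-1.56), Yars (-0.55), Iars (-0.37) and Fgf21, which was at 0 counts in both R6/2 control mice, were lower. The share called was near that of all genes, and these 8 calls were not followed over the alternatives. The part of the lower skeletal muscle markers of R6/2 mice in these values was not tested. In the remaining treatment comparisons up to 4 of the 64 passed the threshold. After HSP990, 1 rose in wild type (Impact, an inhibitor of the kinase GCN2, log2 fold change 1.16, adjusted p = 0.033 by edgeR, beside 1.85% of all genes; lost without vehicle replicate 2 or either treated mouse) and 1 fell in R6/2 (Ddit4, a stress-induced mTORC1 inhibitor, -4.77, adjusted p = 0.014 by edgeR, beside 1.43% of all genes). The Ddit4 values were spread, at 50.2 and 281 CPM after vehicle and 4.99 and 7.09 CPM after HSP990 in R6/2, and the call was lost without R6/2 vehicle replicate 2 or without either treated mouse. After HS, 4 rose in wild type. These were Ddit4 (5.71, SE 0.97), Stc2 (2.37, SE 0.33), Cebpb (1.93, SE 0.20) and Mthfd1l (1.72, SE 0.32), with adjusted p = 4.8e-05 to 0.0095 by edgeR. The Ddit4 call was lost without either wild type control mouse, and the Mthfd1l call without control replicate 2 or HS replicate 2. In R6/2 and in Hsf1-/- mice 0 of the 64 were called after HS by edgeR, with 9 and 19 at an unadjusted p below 0.05 and 2 and 5 called by DESeq2.

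Of the 10 genes most like the members in profile, all but Rcc2 and Fut1 were on the pathway lists, which were made with earlier results of these data known. Over the 24 libraries, the mean standardised level of the 9 members had its highest Pearson correlations with Fgf21 (r = 0.937), Xpot (0.93), Slc7a1 (0.884), Slc7a11 (0.839), Slc6a9 (0.836), Rcc2 (0.831), Fut1 (0.817), Atf5 (0.802), Cebpg (0.795) and Aars (0.787). The correlations share libraries and rest largely on the 2 treated Hsf1-/- mice, whose values picked the members, so they are a description and not a test. With a pseudocount of 2 in place of 0.5 CPM, 8 of the 10 genes were also among the nearest. Slc7a11, the cystine transporter, had a log2 fold change of 3.48 (SE 0.89) after HSP990 in Hsf1-/- mice that was not called (adjusted p = 0.17 by edgeR), as was the case for the transcription factor Atf5 (1.07, SE 0.24, adjusted p = 0.097 by edgeR).

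**Figure D4:**
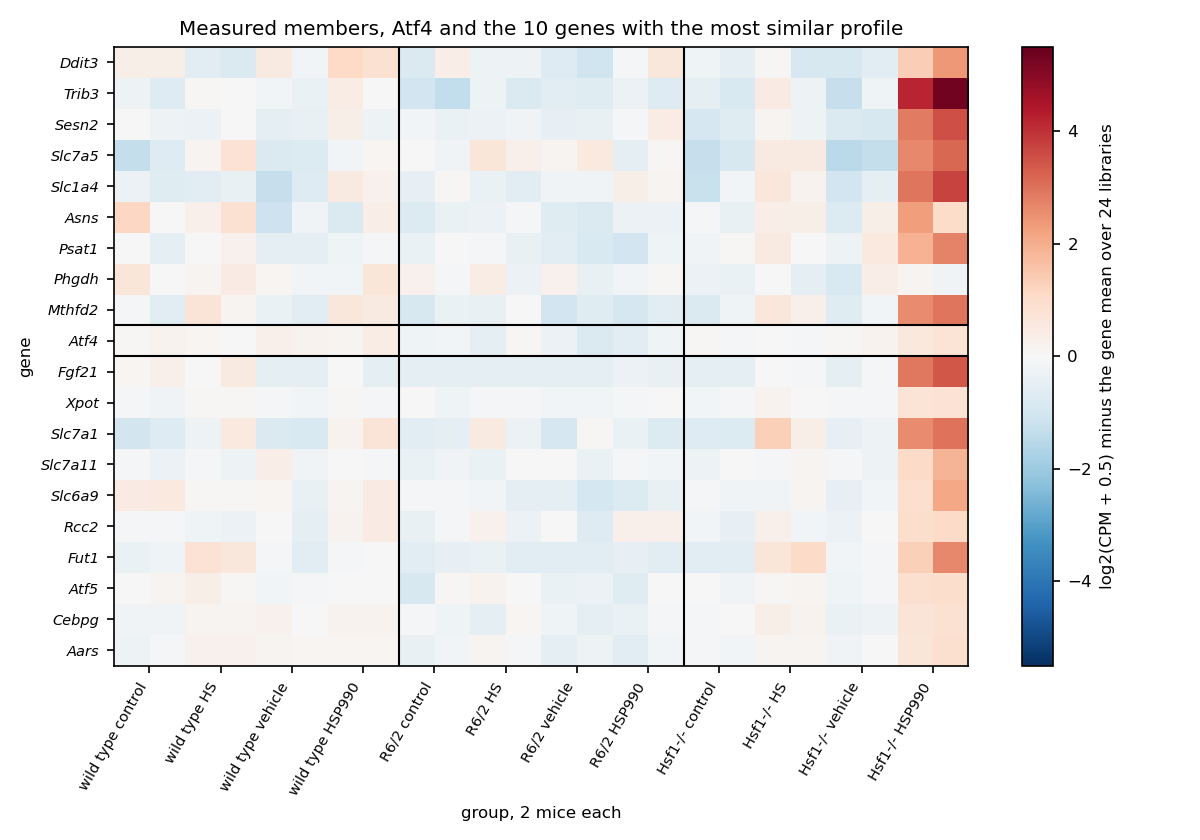
Log2 level (CPM with 0.5 added) of the 9 measured members, Atf4 and the 10 genes with the most similar profile, as the difference from each gene's mean over 24 libraries, with columns grouped by genotype and treatment. The last 2 columns, the Hsf1-/- mice given HSP990, stand out in most rows of the upper block, and Phgdh and Atf4 show little contrast. In the lower block the contrast is small for Xpot, Rcc2, Atf5, Cebpg and Aars, with log2 fold changes of 0.86 to 1.18 in those mice.

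For reference, 5 chaperone genes controlled by HSF1 (Hspa1a, Hspa1b and others) were all called as raised after HSP990 in wild type and in R6/2 mice. In Hsf1-/- mice 0 of the 5 were called by edgeR's quasi-likelihood test, with 1 at an unadjusted p below 0.05. Hspa1a and Hspa1b are near-identical copies, and how reads were split between them is not given in the sources used here.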

How the data were processed

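Strand-specific, paired-end libraries from polyA-selected RNA of 24 mice (12 groups, 2 mice each) were analysed. The authors aligned the reads with Bowtie to mm9 (version not given in the sources used here) and deposited raw counts per gene, identified by gene ID; the counting program and its strand setting are not given in the sources used here. Of 18669 genes, 18594 were matched to a symbol. The filter of the study (2 or more counts in 10 or more libraries) left 13754 genes, which were fitted in R 4.3.3 with edgeR 4.0.16, using TMM scaling and a quasi-likelihood test over all 12 groups with 12 residual degrees of freedom. A gene was called at a Benjamini-Hochberg adjusted p below 0.05 within each of 11 comparisons, and p-values measure only the spread between these mice. The members and all gene lists were chosen with earlier results of these data known. Members have no p-value in HSP990 comparisons, which chose them. Named genes were the members, Atf4, Hsf1, up to 6 called genes per list and comparison with the largest log2 fold change, and the 10 genes nearest in profile. Alternatives were other scaling, filters and tools (DESeq2 1.42.0), fits of only the groups compared, the replicate number as a block, and each mouse left out. Same-numbered mice within a comparison correlated in their deviations between -0.197 and 0.239, and nothing in the labels ties them, so the block is only an alternative. Replicates differed by more than sampling noise (chi-square per degree of freedom 19.4 to 110.2). Copies of transcripts were searched with minimap2. Gene positions are NCBIM37, promoter sequences are RefSeq on GRCm38.p6, and no coordinates were converted.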

Additional observations from a re-analysis of the deposited data

Results flagged for a closer look

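The response of Xpot, which encodes the exporter of tRNAs from the nucleus, to HSP990 differed between Hsf1-/- and wild type mice by 0.75 on the log2 scale (SE 0.15, adjusted p = 0.033 by edgeR's quasi-likelihood test), a test of the difference between both genotypes' responses. Both treated Hsf1-/- mice were above both vehicle mice. The value ranged from 0.663 to 0.846 over 15 alternatives and was called in 5 of them, with adjusted p between 0.00081 and 0.21. Age differed between the genotypes and cannot be told apart from them. Xpot was on a list made with earlier results of these data known, and this comparison includes the mice whose values picked the members.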

How the results depend on the processing

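Direction was followed for the members outside the HSP990 comparisons and for the pathway genes called in the main fit of the treatment comparisons. None of these, where called in the main fit or in an alternative, changed direction. Pathway genes called only in an alternative were not followed. Of 217 values of called genes under an alternative, 150 stayed called in the same direction and 67 did not, and of 777 values of genes not called, 9 became called and 73 changed sign while uncalled. The cause of these differences was not tested, except that fits of only the groups compared and fits without a mouse hold fewer samples, and a group left with 1 mouse was assumed to vary like the others.

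For the members after HSP990, R6/2, the median log2 fold change was 0.163 with RLE scaling, with DESeq2 and with the replicate block, 0.133 with library size only and 0.166 with only the groups compared, against 0.177, and for the members after HSP990, wild type, it was 0.652 with library size only, against 0.607. With each mouse left out it ranged from 3.03 to 3.56 in Hsf1-/-, 0.323 to 0.506 in R6/2 and 0.6 to 1.02 in wild type, the last without wild type HSP990 replicate 1. With library size only the median of all genes was 0.159 after HSP990 in Hsf1-/- mice, against 0.01, and 0.554 between R6/2 and wild type control mice, against 0.014.

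Members called after HS in Hsf1-/- mice numbered 1 with no filter, with DESeq2 and with the replicate block, against 0. Over all genes these settings called 28, 165 and 9, against 1. Between R6/2 and wild type control mice the members called numbered 0 with only the groups compared and 2 with DESeq2, against 1. The same fits called 492 and 2226 of all genes, against 1711. Between Hsf1-/- and wild type 1 member was called with only the groups compared, against 0, beside 766 of all genes, against 266. With a mouse left out, 0 to 1 were called after HS in wild type and 0 to 1 between R6/2 and wild type control mice.

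Other pathway genes called after HSP990 in Hsf1-/- mice numbered 0 with only the groups compared and 15 with DESeq2, against 8. Over all genes these fits called 0 and 141, against 30. In wild type the pathway genes numbered 0 and 5, against 1, and in R6/2 0 and 3, and 2 with RLE scaling, library size only or no filter, against 1. The same 2 fits called 158 and 547 of all genes in wild type, against 255, and 8 and 372 in R6/2, against 197. After HS the pathway genes numbered 1 with no filter, 3 with only the groups compared and 5 with DESeq2 in Hsf1-/- mice, and 2 with DESeq2 in R6/2, against 0 in both. All genes called numbered 28, 98 and 165 in Hsf1-/- mice, against 1, and 128 with DESeq2 in R6/2, against 6. A different HSP990 response was called for 0 with no filter, 0 with only the groups compared and 6 with DESeq2, against 1. Over all genes it was called for 56, 24 and 116, against 58. With a mouse left out the ranges were 2 to 7 (HSP990, Hsf1-/-), 0 to 1 (HSP990, R6/2), 0 to 2 (HSP990, wild type), 0 to 1 (HS, Hsf1-/-), 0 to 4 (HS, R6/2), 2 to 4 (HS, wild type) and 0 to 1 (the difference in HSP990 response).

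The replicate number as a block, over all groups, called Slc7a5 after HS in Hsf1-/- mice (log2 fold change 2.28), left Fgf21 uncalled after HSP990 in Hsf1-/- mice (its adjusted p ranged from 0.021 to 0.48 over all alternatives), and changed no other count of calls by more than 1.5 times. In comparisons where same-numbered mice deviated in opposite directions, the crossed pairing and the numbered pairing were fitted in only the groups compared, a choice made after seeing the data. The crossed pairing called 3 members and 15 pathway genes after HS in wild type, beside 1312 of all 13754 genes, against 283 in the main fit. It called 3 pathway genes after HS in R6/2, beside 221 of all genes, and 1 after HSP990 in Hsf1-/- mice, beside 3 of all genes. The numbered pairing called 1 pathway gene after HS in R6/2, beside 47 of all genes, and 0 after HSP990 in Hsf1-/- mice, beside 1 of all genes.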
